A study of Mus musculus with 13 samples.

Results

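Klk4, Amtn, Odam and Gm17660 are 4 genes of the last stage of enamel formation, and their transcripts were followed in lower incisors of mice with an altered vitamin D receptor. They were taken by name from the deposited table, as 4 of its 34709 genes, and were found there by Ensembl identifier through the symbols of GENCODE M21. Gm17660 is also named Scpppq1. All 4 passed the filter on low counts, which kept 17837 genes. The smallest count behind any of their values was 107 reads, for Gm17660 in control 2.

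The data are RNA-seq counts from 13 libraries, each of a whole lower incisor preparation from males aged 5 postnatal days. There were 3 VDRgem libraries, 5 VDR-null libraries and 5 control libraries, whose mice are called wild type in the series' design text. The VDRgem receptor, from background knowledge of the strain, answers synthetic gemini ligands but not calcitriol, and VDR-null mice make no functional receptor. No agent, strain, litter or driver of a transgene is named for any group, nor is the animal of a given library, so that p-values measure the spread between these samples, which may in part be technical. Sequencing depth was 20405188 counts in the shallowest library (control 2) and 87783466 in the deepest (VDRgem 3).

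Enamel is laid down by ameloblasts in a secretory stage and then hardened in a maturation stage. Secretory ameloblasts release amelogenin, ameloblastin and enamelin, which the metalloproteinase MMP20 begins to cleave. Maturation-stage ameloblasts release the serine protease KLK4, which degrades the remaining matrix so that crystals can thicken, and they attach to the enamel surface through a basal lamina that holds amelotin (Amtn), the odontogenic ameloblast-associated protein (Odam) and SCPPPQ1. Amtn, Odam and Scpppq1 belong to the secretory calcium-binding phosphoprotein family, together with the enamel matrix and casein genes. The mouse incisor grows throughout life, so that secretory and maturing ameloblasts lie in 1 tooth.

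The targeted gene Vdr was read at 164 ± 50.9 CPM (counts scaled to library size with TMM factors) in VDRgem (SD, n = 3), 242 ± 32.7 CPM in VDR-null (n = 5) and 164 ± 15.8 CPM in control (n = 5). Since gene counts hold no exon positions, an altered transcript would be counted too, and these levels do not check the labels. The defining markers of ameloblasts and odontoblasts were present in every library. The summed level of 17 keratinocyte markers, genes of gum or skin epithelium, set libraries of VDRgem apart. It was 16686 CPM in VDRgem 1, 3630 CPM in VDRgem 2 and 263 CPM in VDRgem 3, against 23.6 to 77.9 CPM in VDR-null and 27.4 to 540 CPM in control, where control 4 was the highest and the next reached 95.1 CPM. At most 3 of the 17 markers were at 0 in any library. Of the 15 that were tested, 13 rose in VDRgem against control, where 4.8% of all genes tested were called higher. The differences of the 4 genes between VDRgem and the other groups are therefore also given without VDRgem 1 and 2. The 5 skeletal muscle markers summed to 453 CPM in VDR-null 3 and to 196 CPM in VDRgem 1, and to at most 44.8 CPM in any other library.

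Amtn, Odam and Gm17660 lie on chromosome 5 and Klk4 lies on chromosome 7 (mm10, GENCODE M21, all protein-coding). Klk4 (ENSMUSG00000006948) is at chr7:43881160-43885804 on the plus strand, with 6 exons in 1 transcript. Amtn (ENSMUSG00000029282) is at chr5:88376108-88385916 on the plus strand, with 9 exons in 1 transcript. Odam (ENSMUSG00000009580) is at chr5:87885029-87894174 on the plus strand, with up to 12 exons in 2 transcripts, and its start lies 491 kb from that of Amtn. Gm17660 (ENSMUSG00000091034) is at chr5:104070064-104077608 on the minus strand, with up to 10 exons in 3 transcripts, 15.7 Mb from Amtn. Of the 4 it was the only one that another annotated gene overlapped. That gene, Gm43333, runs on the same strand and stood at 0.968 to 1.28 CPM in VDRgem, 0.233 to 1.01 CPM in VDR-null and 0.290 to 0.723 CPM in control, so that reads shared between them could be assigned to neither or to the wrong one.

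The 250 bases before each start site are shown because the levels of the 4 genes correlated positively across libraries. They are RefSeq sequences on GRCm38.p6, read 5′ to 3′ on the gene's strand and ending at the base before the RefSeq start. Capitals mark matches to the motifs named after the sequences. The intervals are chr7:43880910-43881159 on the plus strand for Klk4, chr5:88375858-88376107 on the plus strand for Amtn, chr5:87884760-87885009 on the plus strand for Odam and chr5:104077609-104077858 on the minus strand for Gm17660.
Klk4: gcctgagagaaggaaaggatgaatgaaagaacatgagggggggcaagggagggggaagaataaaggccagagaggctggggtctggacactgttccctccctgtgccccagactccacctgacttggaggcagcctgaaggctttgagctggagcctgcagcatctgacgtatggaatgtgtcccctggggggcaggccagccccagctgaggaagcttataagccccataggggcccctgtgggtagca
Amtn: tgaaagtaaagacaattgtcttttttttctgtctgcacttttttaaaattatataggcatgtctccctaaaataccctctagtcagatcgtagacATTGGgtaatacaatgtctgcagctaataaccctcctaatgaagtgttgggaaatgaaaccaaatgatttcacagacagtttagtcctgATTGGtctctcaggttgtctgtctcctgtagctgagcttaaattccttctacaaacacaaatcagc
Odam: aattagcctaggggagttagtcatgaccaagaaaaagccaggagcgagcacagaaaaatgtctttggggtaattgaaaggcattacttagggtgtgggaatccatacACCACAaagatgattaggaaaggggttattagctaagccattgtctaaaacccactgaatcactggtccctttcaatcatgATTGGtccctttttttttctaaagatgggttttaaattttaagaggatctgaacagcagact
Gm17660: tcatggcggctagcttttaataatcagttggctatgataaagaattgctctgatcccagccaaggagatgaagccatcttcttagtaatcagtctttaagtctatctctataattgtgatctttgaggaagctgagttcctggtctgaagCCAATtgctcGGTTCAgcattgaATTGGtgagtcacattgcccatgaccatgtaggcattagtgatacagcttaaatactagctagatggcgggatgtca
The sequence of Klk4 was rich in G and C, at 59.6%, and those of Amtn (37.2%), Odam (40%) and Gm17660 (42.0%) were poorer than the median of 52.4% over 32536 different mouse promoters of the same length. The letters CCAAT, searched on both strands, were found in 33.8% of these promoters. They were found in all 3 sequences from chromosome 5, as ATTGG on the gene's strand at -66 to -62 in Amtn, -62 to -58 in Odam and -77 to -73 in Gm17660, counted back from the start site. Further copies lay at -155 to -151 in Amtn and, as CCAAT, at -100 to -96 in Gm17660, and none lay in Klk4. ATTGG fell wholly between -80 and -50 in 3.81% of promoters, a window chosen after the sequences were read. Amtn and Odam also shared the 9 bases TGATTGGTC around it, a run found in 0.664% of promoters and chosen in the same way, which holds the ATTGG match. The RUNX motif TGTGGT, found in 14.0% of promoters, lay at -143 to -138 on the opposite strand of Odam. Of 3 half-sites of nuclear receptors, AGGTCA (14.0% of promoters) and AGTTCA (11.8%) were in none of the 4 windows and GGTTCA (8.81%) was at -90 to -85 in Gm17660. Neither TATAAA (12.3%) nor a direct repeat of such half-sites spaced by 3 bases, known as DR3 (0.04%), was in these windows.

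Klk4 transcripts, for the protease that clears the enamel matrix, were highest in VDRgem. The VDRgem libraries held 636, 379 and 351 CPM, the VDR-null libraries 274, 293, 442, 186 and 217 CPM, and the controls 249.99, 285, 260.2, 268 and 233 CPM. All VDRgem libraries lay above all controls, whereas the VDR-null libraries lay on both sides of them, with VDR-null 3 far above and VDR-null 4 and 5 below. The mean was 456 ± 157 CPM in VDRgem (SD, n = 3), 282 ± 99.0 CPM in VDR-null (n = 5) and 259 ± 19.4 CPM in control (n = 5). Klk4 rose 1.76-fold in VDRgem against control, which is 0.81 on the log2 scale (SE 0.24, adjusted p = 0.0494). Adjusted p-values are those of edgeR's quasi-likelihood test with the Benjamini-Hochberg method over every gene tested. In VDR-null against control the log2 fold change was 0.12 (SE 0.21, adjusted p = 0.77), and in VDRgem against VDR-null it was 0.69 (SE 0.24, adjusted p = 0.0577), neither of which passed. In whole incisors, a change in the number of cells of a type and a change in RNA per cell cannot be told apart.

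Amtn, for a basal lamina protein of the maturing enamel surface, was also highest in VDRgem. It stood at 1667, 1161 and 1255 CPM in VDRgem, at 905, 888, 1097, 656 and 603 CPM in VDR-null, and at 817, 1066, 1046, 968 and 943.5 CPM in control. The lowest VDRgem library lay above the highest library of both other groups, and VDR-null 4 and 5 lay below every control. Means were 1361 ± 269 CPM in VDRgem, 829.8 ± 201 CPM in VDR-null and 968 ± 98.8 CPM in control. Against VDR-null, Amtn in VDRgem rose 1.64-fold (log2 0.71, SE 0.18, adjusted p = 0.0172). Against control the value was 0.49 (SE 0.18, adjusted p = 0.108), which missed the threshold of 0.05. VDR-null gave -0.22 against control (SE 0.16, adjusted p = 0.419), the only negative value among the 4 genes in that comparison.

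Odam encodes a partner of amelotin at the interface of ameloblast and enamel. Its libraries held 2224, 1655 and 1565 CPM in VDRgem, 1148, 955, 1686, 843 and 942 CPM in VDR-null, and 959.6, 1108, 1025, 945 and 826 CPM in control. The VDRgem libraries lay above every control, and VDR-null 3 lay among them while the other VDR-null libraries lay near the controls. The mean was 1814 ± 357 CPM in VDRgem, 1115 ± 338 CPM in VDR-null and 973 ± 104 CPM in control. Odam rose in VDRgem by 0.90 on the log2 scale against control (SE 0.20, adjusted p = 0.0178) and by 0.70 against VDR-null (SE 0.20, adjusted p = 0.0265). VDR-null against control gave 0.20 (SE 0.17, adjusted p = 0.525).

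Gm17660, for the small proline- and glutamine-rich protein SCPPPQ1, had the lowest level of the 4 and, in VDRgem and control, the widest relative spread. Its values were 27.5, 15.3 and 10.5 CPM in VDRgem, 6.13, 10.8, 12.7, 5.40 and 8.93 CPM in VDR-null, and 6.13, 5.07, 7.40, 6.74 and 4.45 CPM in control. The VDRgem libraries lay above every control, and VDR-null 2, 3 and 5 did so too. Means were 17.8 ± 8.77 CPM in VDRgem, 8.79 ± 3.09 CPM in VDR-null and 5.96 ± 1.20 CPM in control. Gm17660 rose in VDRgem by 1.57 on the log2 scale against control (SE 0.31, adjusted p = 0.0122), a 2.97-fold higher level, and by 1.02 against VDR-null (SE 0.31, adjusted p = 0.0354). In VDR-null against control it gave 0.55 (SE 0.28, adjusted p = 0.252).

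**Figure D1:**
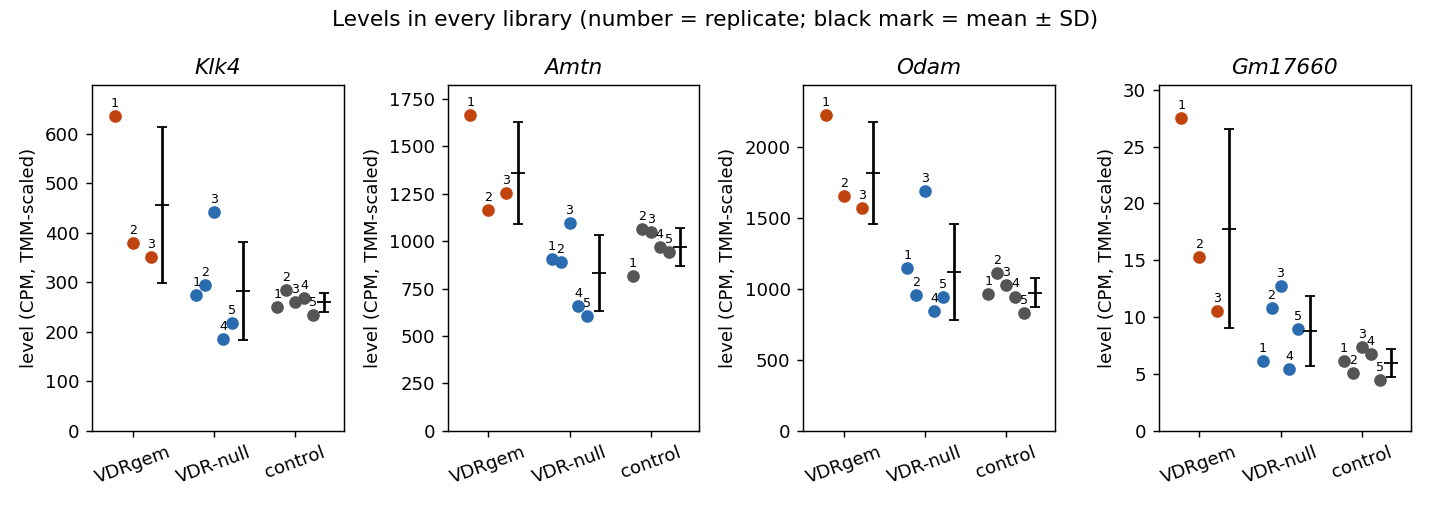
Level of each gene in every library, in CPM after TMM scaling, with the mean and SD of each group as a black mark and the replicate number above each point. The 3 VDRgem libraries lie above the 5 control libraries for every gene, and VDR-null 3 is the highest VDR-null library for every gene.

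VDRgem against control tests a receptor that is present but unable to answer calcitriol. Klk4, Odam and Gm17660 rose and Amtn did not pass, so that 3 of 4 members were called, against 8.62% of all genes tested in either direction and 4.8% of them as higher. All 4 were above every control in every VDRgem library, as were 9.01% of all genes tested. Two-sided exact permutation tests on log2 CPM gave p = 0.0357 for each of the 4 genes, the smallest that 3 against 5 libraries allow, and 0.0857 after adjustment over 12 tests. VDRgem 1, the library with the most keratinocyte marker RNA, was the highest for all 4 genes.

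VDRgem 3, the VDRgem library with the least keratinocyte RNA, was above the highest control for each gene, by 1.23-fold for Klk4, 1.18-fold for Amtn, 1.41-fold for Odam and 1.43-fold for Gm17660. The part of the keratinocyte RNA in these levels was not tested. Without VDRgem 1 and 2 the log2 fold changes against control were 0.43 for Klk4, 0.36 for Amtn, 0.67 for Odam and 0.81 for Gm17660, and none passed edgeR's test, which then assumed that the lone library varied like the other groups. Without VDRgem 1 alone they were 0.48, 0.31, 0.72 and 1.10 in the same order, with edgeR adjusted p of 0.327, 0.462, 0.115 and 0.0936, again with 0 of 4 called. Over all genes tested, 66 were called without VDRgem 1, against 1537 in the main fit. With the keratinocyte level as a covariate the log2 fold changes were 0.38, 0.38, 0.67 and 0.61. Calls were then 0 of 4, and also 0 over all genes tested. Klk4, whose adjusted p lay closest to the threshold, also missed it with limma-voom, with library totals as scaling and with robust dispersion. It missed it as well when any 1 control, VDRgem 2 or VDR-null 1, 2 or 5 was left out, with edgeR adjusted p of 0.0504 to 0.104. In the fit of VDRgem and control libraries alone, all 4 genes passed, and 1972 were called over all genes tested.

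**Figure D2:**
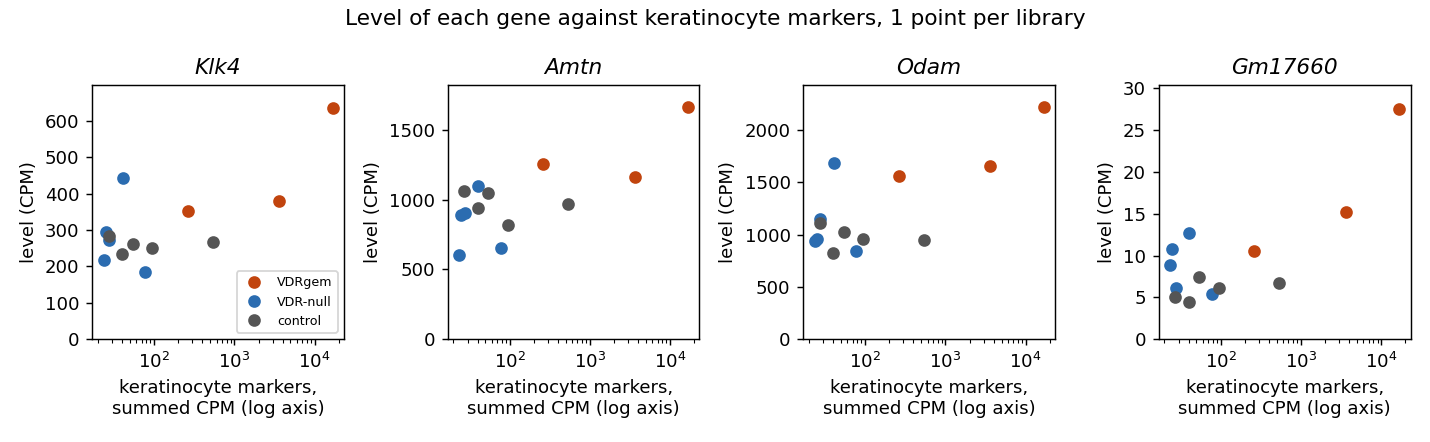
Level of each gene in CPM against the summed CPM of 17 keratinocyte markers (log axis), 1 point per library, coloured by group. VDRgem 1 is highest on both axes, and VDRgem 3, at 263 CPM of markers, lies above all controls in each gene.

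VDR-null against control tests the absence of a working receptor. None of the 4 genes passed, against 1.33% of all genes tested, and in the main edgeR fit none reached an unadjusted p under 0.05. In other edgeR fits 0 or 1 did. It was 1 in the fit of those 2 groups alone, without the low-count filter and with the keratinocyte covariate. DESeq2 called 0 of 4 as well, with 1 at an unadjusted p under 0.05. The groups overlapped for every gene, and the exact permutation p was 0.802 for Klk4, 0.206 for Amtn, 0.524 for Odam and 0.111 for Gm17660. Intervals of 2 SE around the log2 fold changes ran from -0.30 to 0.54 for Klk4, from -0.54 to 0.09 for Amtn, from -0.15 to 0.54 for Odam and from -0.00 to 1.10 for Gm17660. All 4 intervals include 0, that of Gm17660 only just, so that they leave room for a change of either sign.

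The VDR-null libraries differed among themselves more than the controls did. The coefficient of variation of Klk4 was 34.5% in VDRgem, 35.1% in VDR-null and 7.49% in control, and that of Odam was 19.7%, 30.3% and 10.7% in the same groups. VDR-null 3, the library with the most skeletal muscle marker RNA, was above the highest control by 1.55-fold for Klk4, 1.03-fold for Amtn, 1.52-fold for Odam and 1.72-fold for Gm17660. Without it the log2 fold changes of VDR-null against control were -0.09 for Klk4 and -0.00 for Odam, both with the sign reversed. The part of the muscle RNA in these levels was not tested.

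Between the mutants, Amtn, Odam and Gm17660 rose in VDRgem against VDR-null and Klk4 did not pass. These 3 of 4 stand against 18.8% of all genes tested in either direction and 10.6% as higher, so that calls were frequent in this comparison. Only Amtn had every VDRgem library above every VDR-null library, as did 9.17% of all genes tested, with an exact permutation p of 0.0357. For Klk4, Odam and Gm17660 the exact p was 0.107, and VDR-null 3 exceeded at least 1 VDRgem library. None of the 4 passed without VDRgem 1, with the keratinocyte covariate or in the fit of the mutants alone. Over all genes tested, 434, 14 and 753 were called in these fits, against 3346 in the main fit. Only 1 of the 4 passed without VDR-null 4 or without VDR-null 5, where 2604 and 2492 were called over all genes tested. Without VDRgem 1 and 2 the log2 fold changes between the mutants were 0.31 for Klk4, 0.59 for Amtn, 0.48 for Odam and 0.26 for Gm17660. With the keratinocyte covariate they were 0.16 for Klk4, 0.58 for Amtn, 0.42 for Odam and -0.17 for Gm17660, the last with the sign reversed.

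**Figure D3:**
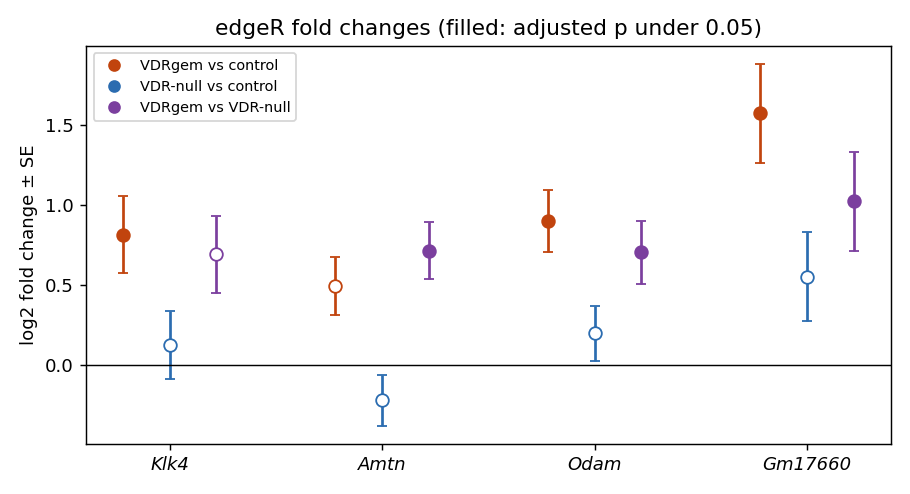
Fitted log2 fold change of each gene with its SE in the comparisons of VDRgem with control, VDR-null with control and VDRgem with VDR-null, filled where the edgeR adjusted p was under 0.05. The values of VDRgem against control run from 0.49 for Amtn to 1.57 for Gm17660, and those of VDR-null against control from -0.22 to 0.55 with none filled.

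Per kilobase of exon, the order of the levels was Amtn, Odam, Klk4 and Gm17660 in every group, but the first 2 differed little in the mutants. In VDRgem the levels per kilobase were 1332 ± 263 CPM for Amtn, 1319 ± 260 CPM for Odam, 365 ± 126 CPM for Klk4 and 31.5 ± 15.6 CPM for Gm17660 (SD, n = 3). In VDR-null they were 812 ± 197 CPM for Amtn, 810.3 ± 246 CPM for Odam, 226 ± 79.3 CPM for Klk4 and 15.6 ± 5.47 CPM for Gm17660 (n = 5). In control they were 947 ± 96.7, 707 ± 75.9, 207 ± 15.5 and 10.6 ± 2.13 CPM in the same order (n = 5). Amtn and Odam differed by less than their spread in both mutants. Their ranges over control libraries overlapped, but within every control library Amtn lay above Odam per kilobase. Klk4 and Gm17660 stood apart from their neighbours in every group.

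The control levels place the genes among the transcripts of the tooth. By mean control level per kilobase, Amtn ranked 12 and Odam 18 of 17822 tested genes with a known exon length, Klk4 ranked 84 and Gm17660 4041. Amelx, for amelogenin, ranked 1, Ambn, for ameloblastin, 3, Enam, for enamelin, 23, and Mmp20 97. Amtn and Odam thus stood above Enam and below Ambn per kilobase.

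A further comparison set each gene against the secretory matrix genes within the same library, since both are made by ameloblasts at successive stages. The matrix genes themselves gave no steady base. Amelx stood at 20198 ± 8494 CPM in VDRgem and 20672 ± 13444 CPM in control, and its highest control was 7.13 times its lowest. The coefficient of variation over controls was 65.0% for Amelx, 51.8% for Ambn and 74.3% for Enam, against 7.49% for Klk4 and 7.03% for Mmp20. Relative to the mean log2 level of Amelx, Ambn and Enam, the differences between VDRgem and control were 0.55 for Klk4, 0.27 for Amtn, 0.67 for Odam and 1.27 for Gm17660. Their exact permutation p ran from 0.214 to 0.75, and over all 12 such tests the lowest adjusted p was 0.796, with every pair of groups overlapping. VDRgem 3 alone, which allows no test, differed from the control mean on this measure by 0.95 for Klk4, 0.89 for Amtn, 1.20 for Odam and 1.36 for Gm17660. These differences were larger than those of the VDRgem mean, but VDRgem 3 lay within the wide range of the controls for all 4 genes.

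Mmp20, the protease of the secretory stage, was chosen as a second base after this spread was seen. It stood at 626 ± 117 CPM in VDRgem, 767 ± 195 CPM in VDR-null and 616 ± 43.3 CPM in control. Relative to Mmp20, VDRgem lay above control by 0.75 for Klk4, 0.47 for Amtn, 0.88 for Odam and 1.47 for Gm17660 on the log2 scale, with exact permutation p of 0.0714 for Klk4 and Amtn and 0.0357 for Odam and Gm17660. The difference between VDR-null and control relative to Mmp20 was -0.54 for Amtn, with an exact permutation p of 0.0159. The lowest adjusted p among these 12 tests was 0.0857, so that none passed. In VDRgem 3 alone, which allows no test, the differences from the control mean relative to Mmp20 were 0.17 for Klk4, 0.11 for Amtn, 0.42 for Odam and 0.57 for Gm17660, and Klk4 and Amtn lay within the range of the controls.

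**Figure D4:**
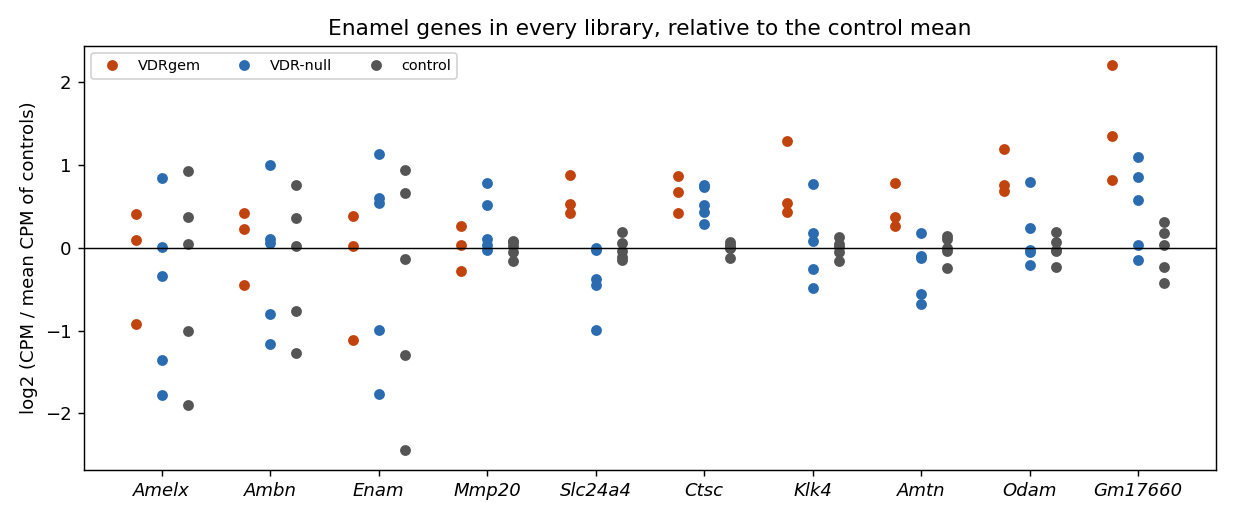
Level of enamel genes in every library as log2 of CPM over the control mean, with VDRgem left of VDR-null and control for each gene. Amelx, Ambn and Enam spread widely in every group, whereas controls of Mmp20, Ctsc, Klk4, Amtn and Odam lie close together and all VDRgem libraries of Klk4, Amtn, Odam and Gm17660 lie above them.

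Ratios between members, added after the counts were seen, showed how evenly the genes moved. The ratio of Odam to Amtn was 1.33, 1.42 and 1.25 in VDRgem, 1.27, 1.08, 1.54, 1.28 and 1.56 in VDR-null, and 1.17, 1.04, 0.980, 0.975 and 0.876 in control. Every VDRgem library lay above every control in this ratio, and all VDR-null libraries but VDR-null 2 did. The log2 difference from control was 0.41 in VDRgem (exact permutation p = 0.0357) and 0.41 in VDR-null (exact permutation p = 0.0159), and these comparisons share their controls. Between VDRgem and VDR-null the difference was -0.00 (exact permutation p = 0.964). VDRgem 3 alone differed from the control mean by 0.31 in this ratio.

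Klk4 and Gm17660 likewise gave higher mean ratios to Amtn in both mutants. The difference from control in the ratio of Klk4 to Amtn was 0.29 in VDRgem (exact permutation p = 0.0714) and 0.31 in VDR-null (exact permutation p = 0.0238). For Gm17660 to Amtn it was 1.0 in VDRgem (exact permutation p = 0.0357) and 0.76 in VDR-null (exact permutation p = 0.0317). The ratio of Klk4 to Odam differed by -0.12 in VDRgem and -0.10 in VDR-null, with exact permutation p of 0.25 and 0.341. Gm17660 also rose relative to Klk4, by 0.72 in VDRgem (exact permutation p = 0.0357) and 0.45 in VDR-null (exact permutation p = 0.0635). Relative to Odam it differed from control by 0.59 and 0.35, with exact permutation p of 0.107 and 0.167. Over the 18 tests of 6 ratios in 3 comparisons, no adjusted p was under 0.107. In VDRgem 3 alone the difference from the control mean was 0.06 for Klk4 to Amtn, within the range of the controls, and 0.46 for Gm17660 to Amtn. For Gm17660 to Klk4 it was 0.40, and for Gm17660 to Odam it was 0.15, within the range of the controls. For Klk4 to Odam it was -0.25, below the range of the controls.

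**Figure D5:**
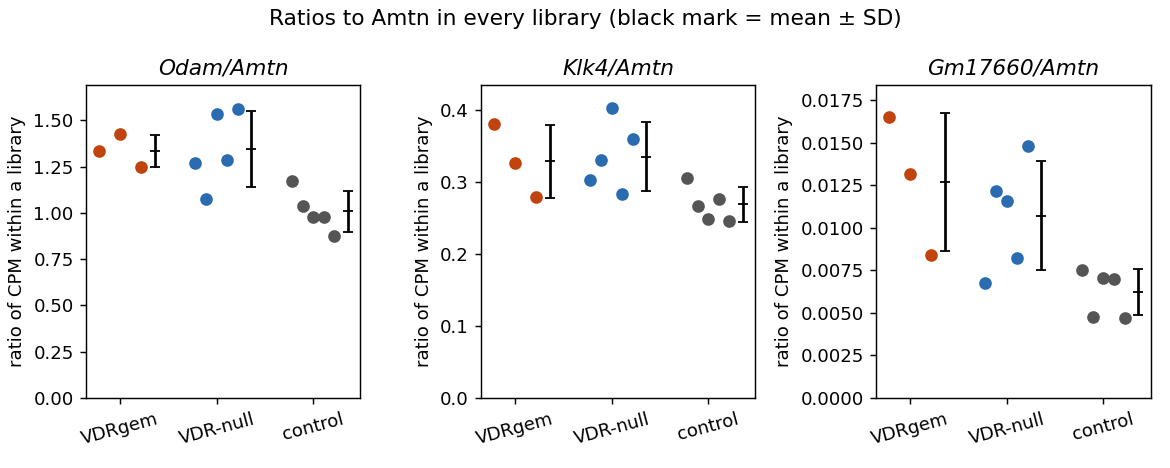
Ratios of Odam, Klk4 and Gm17660 to Amtn within each library, as ratios of CPM, with the mean and SD of each group as a black mark. The ratio of Odam to Amtn lies at 1.25 to 1.42 in VDRgem and 1.08 to 1.56 in VDR-null, against 0.876 to 1.17 in control.

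The levels of Klk4, Amtn and Odam moved together from library to library, also within groups. Over the 13 libraries, log2 CPM of Klk4 and Odam had a Pearson r of 0.946 and a Spearman rho of 0.896, and r was 0.917 after subtraction of group means. For Klk4 and Amtn r was 0.880, rho 0.835 and r after group means 0.888, and for Amtn and Odam they were 0.814, 0.797 and 0.809. The permutation p of r over these 3 pairs was at most 0.00036, and 0.00072 after adjustment over 6 pairs. The permutations shuffled all libraries without regard to group, so that these p-values do not test movement within groups. The 2 libraries farthest from the median of the first gene of a pair were VDRgem 1 and VDR-null 3 for Klk4. For Amtn they were VDRgem 1 and VDR-null 5. Without them r was 0.879 for Klk4 and Odam, 0.848 for Klk4 and Amtn and 0.756 for Amtn and Odam. The last value thus still includes VDR-null 3, the highest VDR-null library in Odam. Gm17660 followed less closely, with an r of 0.864 with Klk4, 0.856 with Odam and 0.623 with Amtn, and its rho with Amtn of 0.511 had a permutation p of 0.0779. After subtraction of group means its r was 0.783 with Klk4, 0.640 with Odam and 0.53 with Amtn. All of these values come from the same libraries and share their scaling and depth.

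Among 11489 other genes that averaged 5 CPM or more, Klk4 had its highest Pearson correlations over 13 libraries with Acadvl (0.957), a mitochondrial acyl-CoA dehydrogenase, Plbd1 (0.947), Odam (0.946) and Rras (0.944), a small GTPase. For Odam the nearest were Klk4 (0.946), Jtb (0.935), Kidins220 (0.923) and Acadvl (0.916). Amtn was nearest to Sgk1 (0.922), a kinase that regulates ion transport, Slc25a1 (0.914), the mitochondrial citrate carrier, Stim1 (0.909), a calcium sensor of the endoplasmic reticulum, and Chchd10 (0.908). Gm17660 was nearest to Mapkapk3 (0.967), Cd9 (0.962), Sod3 (0.939) and Stmn2 (0.931). These are descriptions over 13 points that include differences between groups.

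After subtraction of group means, the nearest genes were Serpinb8 (0.947), Eps8l1 (0.931), Acadvl (0.924) and Rnf167 (0.919) for Klk4, and Klk4 (0.917), Nsmce3 (0.913), Ngef (0.912) and Arfrp1 (0.886) for Odam. For Amtn they were Larp1b (0.941), Acot13 (0.918), Lrrc57 (0.914) and Ctsl (0.909), and for Gm17660 Adarb1 (0.926), Gstm1 (0.925), Vsig10 (0.924) and Mapkapk3 (0.916). Wdr72, needed for vesicle turnover in maturing ameloblasts, was not among these nearest genes. On this measure its r was 0.898 with Klk4, 0.824 with Odam, 0.73 with Amtn and 0.637 with Gm17660. Over all libraries its r was 0.7485, 0.6095, 0.776 and 0.433 in the same order. The keratin Krt10 had an r of 0.743 with Klk4 over all libraries and 0.434 after group means, and Amelx had 0.06 and -0.04. For Krt10 with the other members, r over all libraries and after group means was 0.709 and 0.262 for Amtn, 0.7655 and 0.341 for Odam, and 0.782 and 0.595 for Gm17660.

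Other genes of enamel maturation are mostly transporters of ions and iron. Of 18 tested, 1 rose in VDRgem against control and none fell, a share near the 4.8% of all genes tested that were called higher, with a median log2 fold change of 0.23 against 0.00 for all genes, and 15 of the 18 were positive. The one that rose was Slc24a4, which exports calcium in exchange for sodium and potassium in maturing ameloblasts. It stood at 139, 100.3 and 109 CPM in VDRgem, at 75.2, 55.2, 73.6, 37.8 and 57.7 CPM in VDR-null, and at 78.5, 86.2, 69.8, 73.0 and 68.0 CPM in control. All VDRgem libraries lay above all others. Of all genes tested, 9.01% had every VDRgem library above every control, and 9.17% above every VDR-null library. The log2 fold change of Slc24a4 in VDRgem against control was 0.63 (SE 0.18, edgeR adjusted p = 0.0454). The call was lost without VDRgem 1 (0.47, edgeR adjusted p = 0.262), without VDRgem 1 and 2 (0.52, edgeR adjusted p = 0.464) and with the keratinocyte covariate (0.61, edgeR adjusted p = 0.367). It was also lost without VDRgem 2, VDRgem 3, VDR-null 5 or any 1 control, with edgeR adjusted p of 0.0526 to 0.0985, and with limma-voom or library totals as scaling. None of the 18 was called in VDR-null against control, with a median of -0.05. Against VDR-null, 6 of the 18 rose in VDRgem, where 10.6% of all genes tested were called higher, with a median of 0.45.

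Of 14 genes of the secretory stage, 1 fell in VDRgem against control and none rose, with a median of -0.00, where 8.62% of all genes tested were called in either direction. It was Sp6, a transcription factor of the enamel epithelium, at 432 ± 24.5 CPM in VDRgem and 622 ± 33.4 CPM in control (log2 fold change -0.53, SE 0.12, edgeR adjusted p = 0.021). The call was lost without VDRgem 1 (-0.52, edgeR adjusted p = 0.0986), without VDRgem 1 and 2 (-0.60, edgeR adjusted p = 0.31) and with the keratinocyte covariate (-0.55, edgeR adjusted p = 0.251). In VDR-null none of the 14 was called. Of 9 tested neighbours from the phosphoprotein family, 1 rose in VDRgem, against the same 4.8% of all genes tested as higher. It was Csn3, for the milk protein kappa-casein. It stood at 19.9 ± 6.47 CPM in VDRgem and 10.1 ± 2.36 CPM in control (log2 fold change 0.97, SE 0.25, edgeR adjusted p = 0.0311), and the median of the 9 was 0.50. The call on Csn3 was lost without VDRgem 1 (0.66, edgeR adjusted p = 0.222), without VDRgem 1 and 2 (0.62, edgeR adjusted p = 0.508) and with the keratinocyte covariate (0.65, edgeR adjusted p = 0.501). It was lost too without control 1, 2, 4 or 5, with edgeR adjusted p of 0.0564 to 0.0692, and with limma-voom. None of the 9 passed in VDR-null, with a median of 0.26.

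Ctsc, for cathepsin C, a protease known to activate pro-KLK4, rose in both mutants. It was the only one called of 5 listed genes of enamel proteolysis, a list that leaves out Klk4. Of all genes tested, 4.8% were called higher in VDRgem, and 1.33% were called in either direction in VDR-null. Its levels were 96.3, 70.6 and 84.0 CPM in VDRgem, 71.3, 88.9, 87.5, 75.1 and 64.5 CPM in VDR-null, and 48.2, 52.6, 52.6, 55.5 and 54.0 CPM in control. All mutant libraries lay above all controls. For the VDRgem libraries alone, 9.01% of all genes tested did so. The log2 fold change against the shared controls was 0.67 in VDRgem (SE 0.11, edgeR adjusted p = 0.00951) and 0.56 in VDR-null (SE 0.10, edgeR adjusted p = 0.0299). The first missed the threshold without VDRgem 1 (0.54, edgeR adjusted p = 0.0618), without VDRgem 1 and 2 (0.66, edgeR adjusted p = 0.221) and with the keratinocyte covariate (0.57, edgeR adjusted p = 0.22). The second missed the threshold without control 1, 2, 3 or 4 and without VDR-null 1 or 2, with values of 0.49 to 0.59. Macrophages also express Ctsc, and the sum of 4 macrophage markers was 167 to 243 CPM in VDRgem, 143 to 221 CPM in VDR-null and 136 to 172 CPM in control, and their part in the result was not tested.

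Genes of other cells in the tooth were counted beside these. Of 6 odontoblast genes and 6 osteoblast genes, none passed against control in either mutant. Of 7 macrophage genes none passed in VDRgem and 1 rose in VDR-null, where 1.33% of all genes tested were called in either direction. It was Adgre1, at 24.6 CPM in VDR-null and 14.5 CPM in control on average (edgeR adjusted p = 0.0373). Its call was lost without control 1, 2, 3 or 4, without VDRgem 2 and without VDR-null 1 or 2, with edgeR adjusted p of 0.0522 to 0.1, and with the keratinocyte covariate (edgeR adjusted p = 0.0731). Of 8 genes of the enamel organ, none passed in VDR-null and 3 rose in VDRgem, where 4.8% of all genes tested were called higher. The 3 that rose were Krt14 and Krt5, keratins that basal keratinocytes also make, and Sox2, which marks stem cells of the dental epithelium. Their log2 fold changes were 2.03, 1.64 and 1.38. Without VDRgem 1 and 2 the values of Krt14, Krt5 and Sox2 were 0.19, 0.11 and -0.05, and none passed.

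Klk4 has relatives in the kallikrein cluster that are expressed in skin, and 7 of 9 tested rose in VDRgem against control (Klk5, Klk7, Klk9, Klk11, Klk12, Klk13 and Klk14). Of all genes tested, 4.8% were called higher. The median log2 fold change of the 9 was 4.60, against 0.00 for all genes. Klk11 averaged 13.2 ± 16.3 CPM in VDRgem and 1.21 ± 0.350 CPM in control. The summed level of the 7 was 134 CPM in VDRgem 1, 27.7 CPM in VDRgem 2 and 2.04 CPM in VDRgem 3, against 0.914 to 2.54 CPM in VDR-null and 1.23 to 5.52 CPM in control. In VDRgem 1 and 2 all 7 were above every control, and in VDRgem 3 only 1 was. The 7 were chosen by their call in VDRgem against control, so that their high level in that group follows from the choice. Klk12 and Klk9 averaged 0.0891 and 0.128 CPM in control, near the floor. The part of skin RNA in the level of Klk4 was not tested. None of the 9 passed in VDR-null against control. Without VDRgem 1 and 2 the log2 fold changes of Klk11, Klk13 and Klk9 in VDRgem were -0.34, -0.02 and -0.33, and that of Klk12 was 0.88.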

How the data were processed

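RNA was measured in 13 libraries of whole lower incisors, which were prepared with poly-A selection and strand marking from 300 ng of RNA and 12 PCR cycles, per the labels' protocols. The values are deposited counts, whole reads per gene without scaling. Per the submitters' processing notes, the authors used bcl2fastq (2.20.0.422), the aligner STAR (2.5.3a), the counter HTSeq (0.6.1p1) and the mm10 build. The sources used here do not give an annotation release, counting mode or strand setting, so that reads of overlapping genes may be assigned in more than 1 way. Of 34709 genes, 34618 had a symbol in GENCODE M21 and 1143 had no count.

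The deposited counts were tested with edgeR (4.0.16, R 4.3.3), using TMM scaling, filterByExpr with 10 as its minimum count, and 1 fit of all 13 libraries with a mean for each group. The quasi-likelihood test was adjusted by Benjamini-Hochberg over 17837 genes, and an adjusted p under 0.05 was called. Levels are CPM after TMM scaling, and log2 CPM had a prior count of 2. Levels per kilobase used the merged exons of all transcripts. Exact permutation tests were two-sided (scipy 1.17.1), and correlations had 100000 permutations. The tests were tried on simulated data first.

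The members and lists were chosen with earlier results of these data known, and no list was tested as a set. Named genes were all members, Amelx, Ambn, Enam and Mmp20, called genes of each list by smallest p (up to 4 per comparison with control), and the 4 nearest genes by correlation. A few of the genes this rule picks from marker lists are counted but not described. Wdr72 is among the genes named outside this rule. Alternatives were DESeq2 (1.42.0), limma-voom (limma 3.58.1), other size factors and filters, robust dispersion, fits of 2 groups alone, a keratinocyte covariate, and fits that left out libraries. Plots used matplotlib (3.10.9) with Python (3.11.15).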

Additional observations from a re-analysis of the deposited data

How the results depend on the processing

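No paired analysis was possible because the labels give the groups no shared replicate numbers. Precision was limited by 3 VDRgem libraries, 2 of them rich in keratinocyte RNA. The number of members called in VDRgem against control was 3, and it was 0 with the keratinocyte covariate (1 at an unadjusted p under 0.05), 0 without VDRgem 1 and 2 and 0 to 3 when 1 library was left out. In VDRgem against VDR-null it was 3, and 0 with the keratinocyte covariate, without VDRgem 1 and 2 or in the fit of those 2 groups alone, and 0 to 4 when 1 library was left out. In VDR-null against control it was 0 under all settings tried.

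Genes called in VDRgem against control numbered 1537, and 2350 with DESeq2, 981 with limma-voom, 0 with the covariate (2473 at an unadjusted p under 0.05), 5 without VDRgem 1 and 2 and 66 to 2021 with 1 library left out. In VDR-null against control they numbered 238, and 1559 with DESeq2, 423 at a mean of at least 1 CPM, 703 in the fit of those 2 groups alone, 50 with the covariate, 676 without VDRgem 1 and 2 and 6 to 685 with 1 library left out. In VDRgem against VDR-null they numbered 3346, and 753 in the fit of those 2 groups alone, 14 with the covariate, 32 without VDRgem 1 and 2 and 434 to 4610 with 1 library left out. With library totals alone as scaling, the median log2 fold change of all genes moved to -0.17 in VDRgem and -0.19 in VDRgem against VDR-null, and higher and lower calls were 589 and 1576, against 856 and 681 with TMM. They were 91 and 256 in VDR-null against control (121 and 117 with TMM) and 1310 and 3616 between the mutants (1887 and 1459 with TMM).

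Signs that changed were in values that had missed the threshold, except for Gm17660 between the mutants with the covariate (-0.17) and for skin, muscle and enamel organ genes in VDRgem: with the covariate Klk11 gave -0.69, Klk13 -0.58, Klk9 -1.42, Lgals7 -0.32 and Myh3 -1.18, and without VDRgem 1 and 2 Klk11 gave -0.34, Klk13 -0.023, Klk9 -0.33 and Sox2 -0.050. For Ambn in VDRgem, library totals gave -0.055 and leaving out VDRgem 1 and 2 gave -0.45, and against VDR-null these were -0.081 and -0.49, with -0.015 for VDR-null with the covariate. Amelx in VDRgem gave 0.22 with limma-voom and 0.27 with the covariate, Enam 0.28 and 0.43, and Mmp20 -0.14 with library totals. Against VDR-null, Amelx gave -0.70 without VDRgem 1 and 2, and with the covariate Enam gave 0.24 and Mmp20 0.11. Relative to Enam alone, VDR-null gave -0.30 for Klk4 and -0.20 for Odam, and relative to Mmp20 alone -0.22 and -0.13. The cause was not tested.

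With 1 library left out, VDR-null against control ranged from -0.095 to 0.24 for Klk4 and from -0.00050 to 0.28 for Odam in edgeR, and from -0.12 to 0.20 and from -0.0031 to 0.25 on log2 CPM. Relative to the secretory genes it ranged from -0.43 to 0.41 for Klk4, -0.32 to 0.48 for Odam and -0.68 to 0.084 for Amtn, and Amtn in VDRgem from -0.047 to 0.66. Ratios between the mutants ranged from -0.14 to 0.084 for Klk4 to Amtn, -0.14 to 0.047 for Klk4 to Odam and -0.077 to 0.057 for Odam to Amtn. In VDRgem, VDR-null and between the mutants, Ambn ranged from -0.083 to 0.40, -0.36 to 0.30 and -0.12 to 0.48, Amelx from -0.32 to 0.35, -0.71 to 0.13 and -0.076 to 0.68, and Enam from -0.43 to 0.28, -0.10 to 0.62 and -0.67 to 0.0024. Mmp20 in VDRgem ranged from -0.11 to 0.14.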
